A study of Mus musculus with 24 samples.

Results

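Preadipocytes (PA), the fibroblast-like precursors of fat cells, were set against CD11c+ adipose tissue macrophages (ATM) from the gonadal fat of obese mice, to learn which of these sources carries the transcripts of secreted factors and which carries those of their receptors. The members were the arrays titled HFD PA (3 arrays) and HFD CD11c+ ATM (3 arrays), 6 of the 24 arrays in the series, chosen by their titles and by no measured value. All mice were male C57Bl/6 with no transgene named, and HFD is a high-fat diet with 60% fat. Each of these arrays measured a pool of cells from 3 to 4 mice, taken from fat that had been minced, digested with collagenase and sorted for live cells by flow cytometry. The ages of the mice and the sort markers other than CD11c, an integrin subunit encoded by Itgax, are not stated in the labels. Further groups served as a reference: CD11c- ATM of HFD mice (3 arrays), and, from lean mice on a normal diet (ND), PA (3 arrays, pools of 3 to 4 mice) and CD11c- ATM (2 arrays, pools from 4 mice). The remaining arrays were adipose tissue dendritic cells of ND and HFD mice, and CD11c+ and CD11c- ATM after weight loss, when HFD was withdrawn. They entered the choice of tested genes and rows and the estimate of spread behind every SE and p-value, but are not described. The series design states that CD11c+ ATM were too scarce to purify from lean fat, so the obese and the lean macrophages differ in gate as well as in diet.

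Preadipocytes sit in the stroma around the vessels of fat, lay down much of its collagen matrix and can mature into fat cells. CD11c+ macrophages accumulate in fat during obesity, gather around dying fat cells and take up their lipid. Cells of these kinds signal to each other through secreted ligands that bind receptors on the other cell or on the cell that made them. A transcript shows which sorted population could make a ligand or a receptor, and it measures neither secretion nor binding.

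The 2 populations differed in genes across the whole table, in similar numbers each way. Of 15496 tested genes, 3902 (25.2%) passed the threshold, 1810 of them (11.7%) higher in HFD PA and 2092 (13.5%) higher in HFD CD11c+ ATM. Values are the authors' log2 expression values, and every difference is HFD PA minus HFD CD11c+ ATM, so that a negative difference is a gene higher in the macrophages and 1 unit is a 2-fold change. Each difference is given with its standard error (SE) from limma, fitted over all 24 arrays, and "called" means a Benjamini-Hochberg adjusted p under 0.05 over all tested genes. The median difference of all tested genes was -0.07. Where no array of the dimmer group lay above its own median (2.96 to 3.10 on these 6 arrays), the gene was taken as not measured above the floor there, and the difference is given as a lower bound ("at least"), set against the higher of that median and the gene's own value. In bulk samples like these, fewer cells of a type and less RNA per cell cannot be told apart. Levels are compared between groups for a gene, never between genes. The 3 and 3 arrays did not overlap for 7364 of the 15496 tested genes and for 3867 of the 3902 called, so a lack of overlap adds little to a call.

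The sorted cells carried the markers of their labels, with some signal of the other cell type on every array. All 16 preadipocyte and fibroblast markers were higher in HFD PA, and 13 of 14 macrophage markers were higher in HFD CD11c+ ATM. Lyz2, the lysozyme of macrophages, was the exception, at 10.24, 9.88 and 10.87 in PA against 11.16, 11.36 and 11.03 in ATM (adjusted p = 0.0847, and 0.0382 without HFD PA replicate 3). The median of the fibroblast list was 10.23, 9.89 and 10.09 on the HFD PA arrays and 6.71, 6.01 and 5.76 on the HFD CD11c+ ATM arrays. The median of the macrophage list was 9.88, 9.78 and 9.85 in HFD CD11c+ ATM and 6.15, 5.37 and 7.61 in HFD PA. Replicate 3 of HFD PA thus carried the most macrophage signal of the PA arrays, and replicate 1 of HFD CD11c+ ATM the most fibroblast signal of the macrophage arrays. In lean PA the macrophage list lay lower, at 4.12 to 5.35. The part that this shared signal plays in the differences was not tested. With those 2 arrays both left out, an alternative chosen after seeing the data, 2965 genes were called, and 2917 of them were among the 3902.

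**Figure D1:**
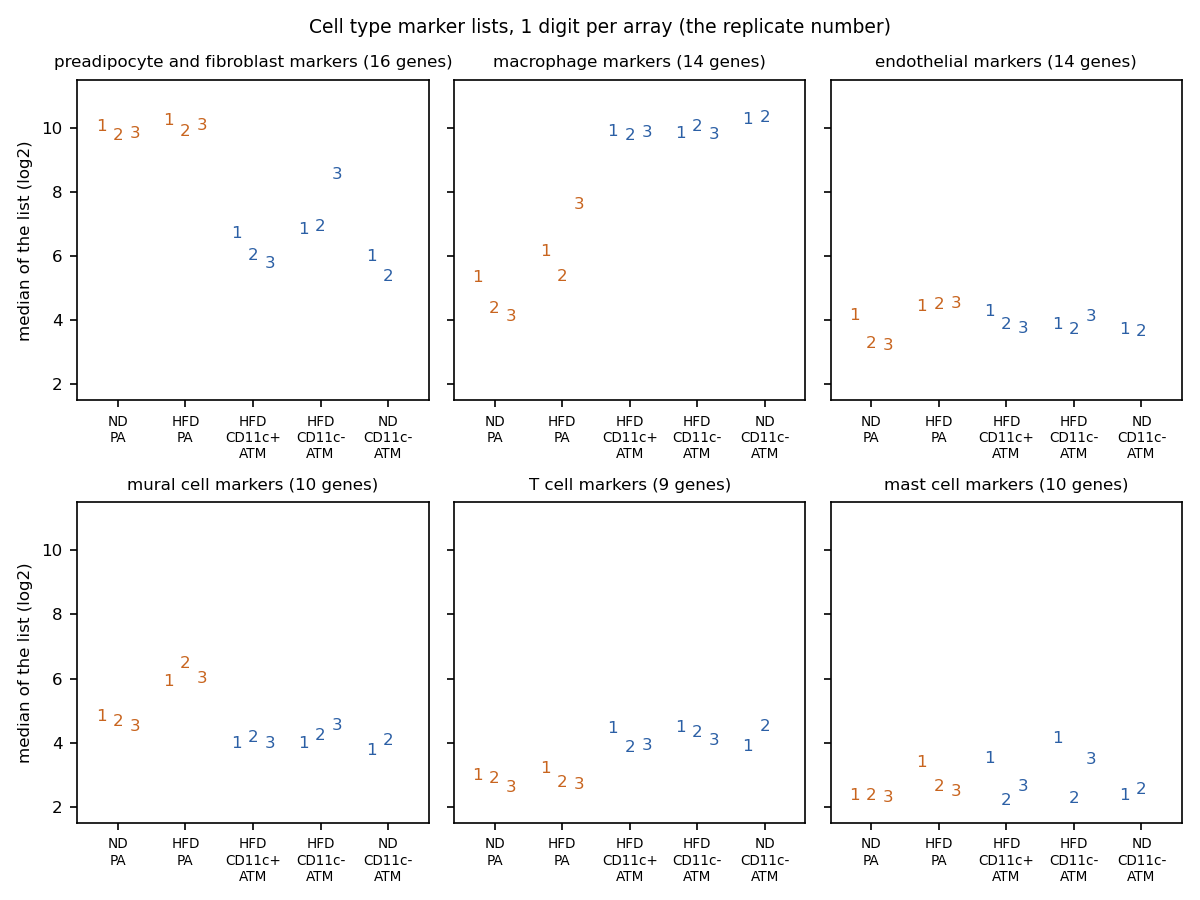
Median log2 expression value of 6 cell type marker lists on each array of the 5 groups, with the replicate number drawn at its value. Orange digits are PA and blue digits are ATM, and the fibroblast and macrophage lists separate the 2 cell types while HFD PA replicate 3 stands highest among the PA arrays for macrophage markers.

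Markers of other cells that fat stroma can hold gave a smaller separation. Of 10 mural cell markers, 7 were higher in HFD PA, with the list median at 5.90, 6.46 and 5.99 in HFD PA, 3.98, 4.15 and 3.97 in HFD CD11c+ ATM and 4.51 to 4.83 in lean PA. These included Acta2 (2.28 ± 0.47), Myh11 (2.50 ± 0.32) and Des (3.20 ± 0.41), all contractile or cytoskeletal genes of smooth muscle and pericytes. Of 14 endothelial markers, 2 (14.3%) were higher in HFD PA (Tek and Plvap, the others had no call), against 11.7% of all tested genes. The endothelial count was 4 without HFD PA replicate 3. None of 10 mast cell markers and 3 of 9 T cell markers (Cd3d, Cd3e and Cd28) were called higher in the macrophages. Thy1, a T cell marker that is also on the fibroblast list, was higher in HFD PA. The T cell count of 3 in the macrophages fell to 1 without HFD CD11c+ ATM replicate 1 (limma adjusted p 0.111 for Cd3d and 0.0536 for Cd3e). Cd3d also lost its call without HFD CD11c+ ATM replicate 2 or HFD PA replicate 2 or 3 (limma adjusted p 0.0531 to 0.105). The dendritic cell list shares genes with macrophages, and 9 of its 14 members were higher in HFD CD11c+ ATM. Another 2, Zbtb46 and Dpp4 (also on the fibroblast list), were higher in HFD PA, and 1 in some fits without an array. Of 9 B cell, 10 NK cell and 8 tested neutrophil markers, 3, 2 and 2 were higher in HFD CD11c+ ATM and 0 in HFD PA. The NK cell and neutrophil counts each fell to 1 in some fits without an array. Of 9 tested adipocyte markers, 0 were higher in HFD PA (1 without HFD PA replicate 2). Pnpla2 was the 1 higher in HFD CD11c+ ATM (11.1%, against 13.5% of all tested genes). Adiponectin (Adipoq) read 3.31, 4.75 and 3.57 in PA and 3.60, 3.81 and 4.10 in ATM, and leptin (Lep) was likewise not called.

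The genes with the widest gaps toward PA were a mix of matrix, complement and membrane genes. Scn7a, a sodium channel, read 9.40, 9.92 and 9.50 in PA and 4.64, 3.24 and 3.52 in ATM, a difference of 5.81 ± 0.56 (adjusted p = 4.66e-07). The 14 that followed were the PDGF receptor Pdgfrb, the RNA gene Snhg18, the collagen Col5a2, Lrrc17, the complement protease C1s1, the matrix protease Mmp3, the lymphatic growth factor Vegfd, the procollagen protease Bmp1, the transcription factor Osr1, the methyltransferase Inmt, the hyaluronan-binding Itih5, the phospholipase Pla1a, Lgi2 and the lipid transporter Abca8a. Their differences ran from 5.27 (Abca8a) to 5.53 (Pdgfrb). For Lgi2 no macrophage array lay above its own median, and its difference was at least 4.71.

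Unnamed gene models aside, the widest gaps toward the macrophages were mostly innate immune receptors and their signalling partners. Tlr7, an endosomal receptor for single-stranded RNA, read 8.04, 8.52 and 8.39 in ATM and 3.02, 3.46 and 5.23 in PA (-4.41 ± 0.55, adjusted p = 5.21e-06). It was followed by the immunoglobulin receptors Fcgr1, Fcgr4 and Fcgr2b, the RNA-sensing Tlr13, the chemokine Ccl12, the exchange factor Vav1, the lectin Mgl2, the haemoglobin receptor Cd163 and the adhesion receptor Adgre4. The other 5 were Ifi209, Tnip3, Neurl3, Epsti1 and Atp8b4. Their differences ran from -4.03 (Cd163) to -4.34 (Fcgr1), and Fcgr1 read 9.42, 9.34 and 9.25 in ATM and 5.30, 2.96 and 6.73 in PA, where replicate 3 was again the highest.

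**Figure D2:**
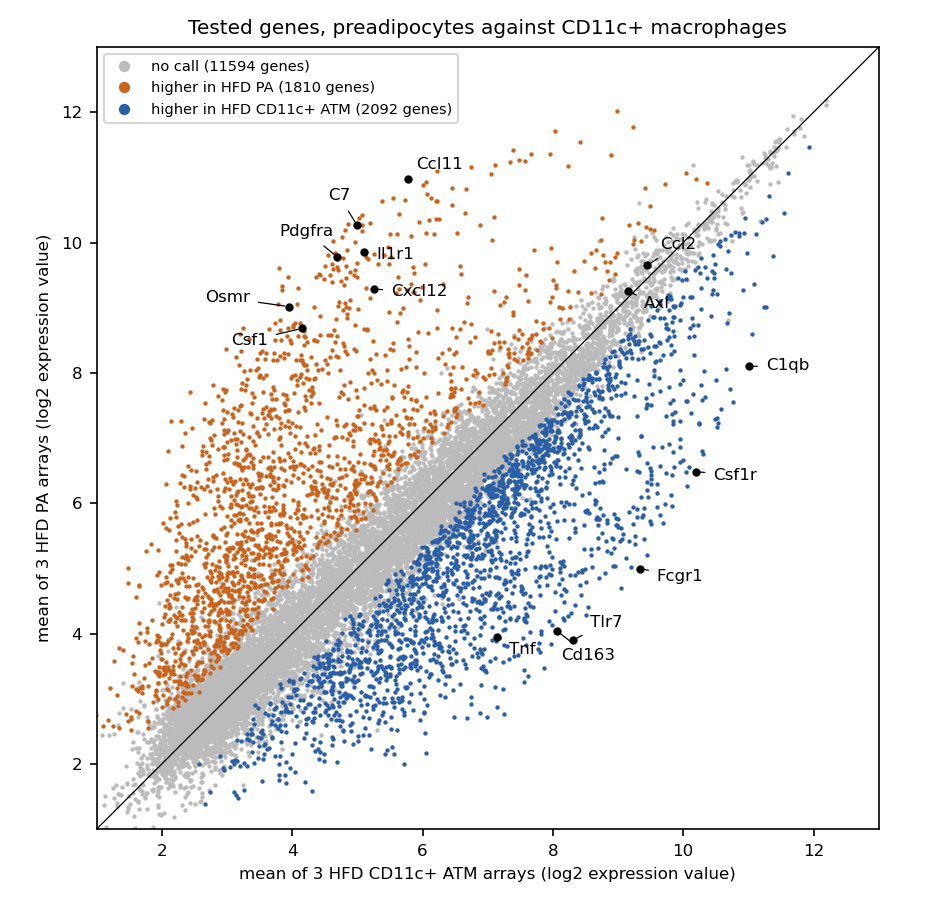
Mean log2 expression value of each of the 15496 tested genes over the 3 HFD CD11c+ ATM arrays (horizontal axis) and over the 3 HFD PA arrays (vertical axis), with the line of equality. Orange points were called higher in HFD PA and blue points higher in HFD CD11c+ ATM, grey points had no call, and Ccl2 and Axl lie near the line while Csf1 and Csf1r lie on opposite sides of it.

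In the lists chosen here, secreted factors leaned to the preadipocytes and receptors to the macrophages. Over all lists of secreted factors, 384 genes were tested, of which 185 (48.2%) were higher in HFD PA and 46 (12%) in HFD CD11c+ ATM, with a median difference of 0.86. Over the receptor lists 344 genes were tested, of which 71 (20.6%) were higher in HFD PA and 122 (35.5%) in HFD CD11c+ ATM, with a median difference of -0.23. Over all tested genes these shares were 11.7% and 13.5%. Of 35 tested collagens and other fibrillar matrix genes, 31 were higher in PA, and of 35 Fc, Trem and paired immune receptors, 27 were higher in ATM. Chemokines, cytokines and prostanoid enzymes were the secreted lists that leaned the other way in their counts. The receptor lists that leaned to PA in their counts were the tyrosine kinases (19 in PA, 3 in ATM), Wnt (7 and 0), TGF-beta family (5 and 1) and hormone receptors (10 and 6). The median difference of the hormone receptors was -0.10, slightly toward ATM. The pattern recognition (20 in ATM, 1 in PA), scavenger (11 and 4) and complement receptors (8 and 1) leaned to ATM with the Fc list. The receptor share as a whole thus depends on which lists were included.

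**Figure D3:**
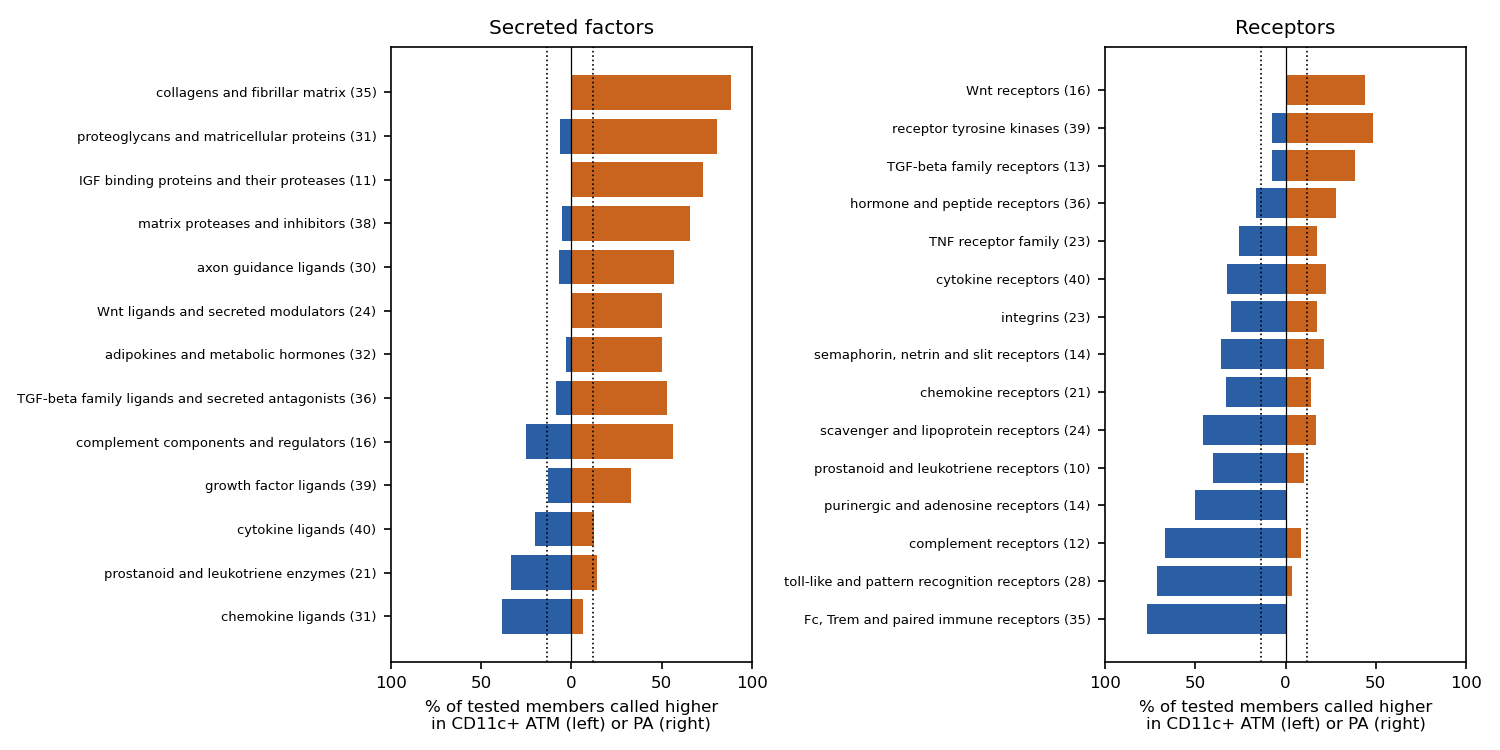
Share of the tested members of each list that was called higher in HFD CD11c+ ATM (blue bars, to the left) or in HFD PA (orange bars, to the right), with the number of tested members in parentheses. Dotted lines mark the shares over all tested genes, 13.5% to the left and 11.7% to the right, and the matrix lists at the top and the Fc and pattern receptor lists at the bottom reach farthest beyond them.

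Chemokines, the secreted proteins that guide leukocytes, came mainly from the macrophage side: 12 of 31 tested ligands were higher in ATM and 2 in PA, with a median difference of -1.32. The 2 stromal chemokines had wide gaps. Ccl11 (eotaxin, which draws eosinophils) read 10.89, 11.29 and 10.72 in PA and 6.65, 5.45 and 5.24 in ATM, a difference of 5.19 ± 0.41 (adjusted p = 1.25e-07). Cxcl12, which holds haematopoietic cells near stroma, read 9.27, 9.42 and 9.16 in PA and 5.59, 5.38 and 4.81 in ATM (4.02 ± 0.37, adjusted p = 3.41e-07). For both genes the lowest PA array stood more than 3 units above the highest macrophage array.

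On the macrophage side, Ccl3, a ligand of CCR1, read 9.35, 8.14 and 8.91 in ATM and 5.04, 3.33 and 6.40 in PA (-3.88 ± 0.59, adjusted p = 4.52e-05). Ccl22 (-3.31 ± 0.76), Ccl24 (-3.20 ± 0.55), Cxcl2 (-3.19 ± 0.50), Pf4 (-2.70 ± 0.49), Ccl4 (-2.63 ± 0.33) and Ccl6 (-2.47 ± 0.50) were higher there as well. Ccl12, the widest of the list, differed by -4.30 ± 0.75, with 7.87, 8.57 and 6.25 in ATM and 3.94, 2.52 and 3.34 in PA. Other ligands of the monocyte receptor CCR2 had no call. Ccl2 (MCP-1) read 9.18, 10.13 and 9.64 in PA and 9.14, 9.83 and 9.38 in ATM, and the groups overlapped (0.20 ± 0.42, adjusted p = 0.815). Ccl7 differed by 0.76 ± 0.58 (adjusted p = 0.401). Ccl8 differed by -1.54 ± 0.69 with an adjusted p of 0.118, which became 0.0484 without HFD CD11c+ ATM replicate 3.

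Among cytokines, which act on immune and stromal cells alike, 5 of 40 tested were higher in PA and 8 in ATM, with a median difference of -0.13. The PA genes included both ligands of the macrophage growth factor receptor CSF1R. Csf1 read 8.72, 8.91 and 8.42 in PA and 4.86, 3.72 and 3.88 in ATM, a difference of 4.53 ± 0.52 (adjusted p = 1.89e-06). Il34 read 6.32, 5.83 and 6.22 in PA and 2.94, 3.07 and 3.43 in ATM (2.98 ± 0.41, adjusted p = 1.48e-05). Neither gene's groups overlapped. Also higher in PA were the alarmin Il33 (2.72 ± 0.49), the B cell factor Tnfsf13b (1.94 ± 0.31) and the lymphoid factor Il7, the last by at least 0.46.

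Tnf, the prototype inflammatory cytokine, read 7.28, 6.97 and 7.17 in ATM and 3.86, 3.42 and 4.57 in PA (-3.19 ± 0.37, adjusted p = 2.35e-06). Il1b, which encodes the inflammatory cytokine IL-1 beta, read 4.94, 5.13 and 4.69 in ATM, while no PA array lay above its median at 2.88, 3.07 and 1.92, so that the gap was at least 1.88. Its natural antagonist Il1rn was higher in the same cells, at 7.10, 7.14 and 7.62 in ATM and 4.13, 3.82 and 6.11 in PA (-2.60 ± 0.45). The anti-inflammatory Il10 (-3.20 ± 0.76), the cytokine subunit Ebi3 (-3.21 ± 0.42) and Il15 (-1.55 ± 0.35) also lay on the macrophage side. Il6 was near the floor in both populations (1.74, 1.99 and 3.08 in PA, 2.12, 2.05 and 1.48 in ATM, adjusted p = 0.662), and Mif was high in both (-0.07 ± 0.20, adjusted p = 0.875).

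Of 39 tested growth factors, 13 (33.3%) were higher in PA and 5 (12.8%) in ATM, against 11.7% and 13.5% of all tested genes. The ATM count was 3 without HFD PA replicate 2, and the median difference of the list was 0.51. Vegfd was at 9.71, 10.29 and 10.08 in PA and 5.27, 4.29 and 4.32 in ATM, and Vegfc, the other lymphatic growth factor, differed by 2.56 ± 0.49. The fibroblast growth factor Fgf7 read 7.76, 6.64 and 7.41 in PA and 3.09, 2.43 and 2.81 in ATM (4.49 ± 0.60, adjusted p = 1.06e-05). Angpt1, which stabilises vessels through the receptor TEK, was at least 3.23 higher in PA, and the matricellular factors Ccn1 and Ccn2 differed by 4.15 ± 0.64 and 3.74 ± 0.53. Vegfa, the main angiogenic factor, had no call at 0.76 ± 0.35 (adjusted p = 0.126, and 0.035 without HFD CD11c+ ATM replicate 3). Igf1, Hgf and the phosphatidylserine bridge Gas6 had none either, at -0.28 ± 0.25, 0.51 ± 0.43 and 0.49 ± 0.31.

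Within the PDGF family, whose members drive the growth of mesenchymal cells, the ligands fell on opposite sides. Pdgfd read 7.33, 6.98 and 7.38 in PA and 2.87, 3.20 and 2.71 in ATM (4.30 ± 0.34, adjusted p = 1.25e-07). Pdgfb, the classical ligand of PDGFRB, read 6.56, 5.67 and 6.29 in ATM and 3.92, 3.82 and 3.74 in PA (-2.35 ± 0.43, adjusted p = 0.000274). Pdgfc, a ligand of PDGFRA, read 6.77, 7.17 and 6.40 in ATM and 5.09, 4.46 and 4.55 in PA (-2.08 ± 0.30, adjusted p = 2.63e-05). None of these 3 genes had overlapping groups. Pdgfa stood at the threshold, at -0.61 ± 0.22 (adjusted p = 0.0491), and lost its call without HFD PA replicate 1, 2 or 3 or HFD CD11c+ ATM replicate 1 or 3 (adjusted p 0.055 to 0.2).

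The TGF-beta family showed a split among its 3 isoforms, the fibrogenic and immunosuppressive cytokines that signal through the same receptors. Tgfb1 read 9.12, 9.10 and 9.16 in ATM and 6.61, 5.64 and 7.33 in PA (-2.60 ± 0.52, adjusted p = 0.000756). Tgfb2 (2.89 ± 0.40, adjusted p = 1.31e-05) and Tgfb3 (3.52 ± 0.44, adjusted p = 4.94e-06) were higher in PA, where Tgfb3 read 7.24, 6.32 and 6.89 against 3.47, 2.53 and 3.88 in ATM. The latent binding protein Ltbp1, which tethers TGF-beta to matrix, was higher in PA by 4.60 ± 0.37. In all, 19 of 36 ligands and secreted antagonists were higher in PA and 3 in ATM, with a median difference of 1.07. The BMP-binding protein Bmper (5.12 ± 0.48), the activin antagonist Fst (4.37 ± 0.43) and Gdf10 (4.17 ± 0.33) led the PA side, and Bmp4, an inducer of the adipocyte lineage, was at least 2.40 higher there. Gdf3 led the macrophage side with 7.71, 7.43 and 7.78 against 4.11, 2.83 and 5.14 in PA (-3.62 ± 0.53).

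No Wnt ligand or modulator and no IGF binding protein was called higher in the macrophages. Of 24 Wnt genes, 12 were higher in PA, led by the decoy Sfrp1, at 8.28, 7.58 and 7.67 in PA and 4.41, 2.27 and 3.00 in ATM (4.62 ± 0.46, adjusted p = 5.58e-07). The Wnt potentiator Rspo1 (2.84 ± 0.29) and Sfrp4 (2.70 ± 0.58) followed, and the median difference of the list was 0.72. Rspo3 read 4.88, 2.68 and 5.30 in PA, with replicate 2 below its median, and was at least 1.29 higher there. Of 11 IGF binding proteins and their proteases, 8 were higher in PA (median 2.00), among them Igfbp6 (4.25 ± 0.41), Igfbp5 (3.66 ± 0.58), Igfbp7 (3.29 ± 0.42) and Igfbp3 (3.06 ± 0.47). Igf1 itself, at 8.67, 8.19 and 8.56 in PA and 8.81, 8.71 and 8.75 in ATM, had no call (adjusted p = 0.485).

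Of 32 adipokines and metabolic hormones, 16 were higher in PA and 1 in ATM (Metrnl, -1.13 ± 0.28), with a median difference of 0.97. The vasodilator peptide precursor Adm read 7.59, 8.91 and 8.11 in PA and 4.06, 4.43 and 3.87 in ATM (4.09 ± 0.61, adjusted p = 3.17e-05). The enkephalin precursor Penk (4.03 ± 0.43) and angiotensinogen (Agt, 3.84 ± 0.41, adjusted p = 1.16e-06) were higher in PA as well, and Fetub by at least 2.69. Agt read 8.44, 7.21 and 8.29 on the PA arrays, so that replicate 2 was the lowest of them, while ATM read 4.31, 3.69 and 4.42. Nampt had no call (-0.49 ± 0.27, adjusted p = 0.23).

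The first complex of the classical complement pathway, C1, is built from a recognition part, C1q, and the proteases C1r and C1s, and its transcripts were divided between the 2 populations. All 3 C1q chains were higher in ATM. C1qa read 10.73, 10.52 and 10.20 in ATM and 7.45, 6.21 and 8.24 in PA (-3.18 ± 0.53, adjusted p = 0.000108). C1qb read 11.16, 11.11 and 10.76 in ATM and 7.74, 7.28 and 9.28 in PA (-2.91 ± 0.39), and C1qc differed by -2.19 ± 0.33. On all 3 chains HFD PA replicate 3 was the highest of the PA arrays, as for the macrophage marker list, of which they are members. The proteases lay on the other side. C1ra read 8.40, 8.46 and 8.63 in PA and 5.69, 5.09 and 4.93 in ATM (3.26 ± 0.57, adjusted p = 0.000186), and C1s1 read 10.26, 10.35 and 10.23 in PA and 6.00, 4.13 and 4.45 in ATM (5.42 ± 0.75, adjusted p = 1.61e-05). Serping1, the inhibitor of C1r and C1s, was also higher in PA, at 11.23, 11.23 and 11.31 against 8.56, 7.10 and 7.05 in ATM (3.68 ± 0.49). C1ra and C1s1 have near-identical neighbours in the mouse genome, whose signal could not be separated here.

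The bases before the start of 4 of these genes are shown to set the recognition chains beside the proteases, from RefSeq on build GRCm38.p6, 5′ to 3′ on the strand of the gene and ending at the base before its start. Capitals mark GAGGAA or its reverse complement TTCCTC, the core of sites for the myeloid factor PU.1, and CATTCC or its reverse complement GGAATG, the core of sites for TEAD factors.
C1qb, chr4:136886201-136886450, minus strand: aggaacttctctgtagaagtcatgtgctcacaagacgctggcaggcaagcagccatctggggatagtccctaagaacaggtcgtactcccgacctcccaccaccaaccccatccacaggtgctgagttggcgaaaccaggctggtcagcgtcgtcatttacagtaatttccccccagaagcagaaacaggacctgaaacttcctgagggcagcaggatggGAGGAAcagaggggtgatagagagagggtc
C1qc, chr4:136892915-136893164, minus strand: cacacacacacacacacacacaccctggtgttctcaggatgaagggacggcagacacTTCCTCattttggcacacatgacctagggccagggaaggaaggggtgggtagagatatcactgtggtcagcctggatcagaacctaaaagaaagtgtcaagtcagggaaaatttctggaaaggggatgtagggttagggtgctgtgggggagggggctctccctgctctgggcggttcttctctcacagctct
C1ra, chr6:124512371-124512620, plus strand: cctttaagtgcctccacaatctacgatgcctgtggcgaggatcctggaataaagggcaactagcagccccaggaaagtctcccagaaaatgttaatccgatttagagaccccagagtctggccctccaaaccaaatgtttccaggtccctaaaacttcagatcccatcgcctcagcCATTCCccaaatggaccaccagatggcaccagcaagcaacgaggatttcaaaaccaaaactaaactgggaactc
C1s1, chr6:124542360-124542609, minus strand: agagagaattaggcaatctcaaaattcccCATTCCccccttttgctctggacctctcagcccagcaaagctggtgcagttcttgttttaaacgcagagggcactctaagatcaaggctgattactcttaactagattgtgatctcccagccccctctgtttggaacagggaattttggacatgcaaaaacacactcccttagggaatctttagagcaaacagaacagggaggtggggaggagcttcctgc
The first letters held 1 match in C1qb and 1 in C1qc and 0 in the proteases, and the second letters held 1 match in C1ra and 1 in C1s1 and 0 in the C1q genes. Among the 27025 genes with a promoter in the table, GAGGAA on either strand was found in 23.1% of such 250-base windows and CATTCC in 12.6%. Of the genes called higher in HFD CD11c+ ATM, 1689 of 2092 had a window, and 28.3% of these held GAGGAA and 9.35% CATTCC. Of the genes called higher in HFD PA, 1334 of 1810 had one, and 22.9% held GAGGAA and 13.4% CATTCC. Of the tested genes without a call, 8983 of 11594 had one, and 21.8% held GAGGAA and 10.8% CATTCC. A match of these letters is not a bound site, and no match says only that they are not in the window.

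Over all 16 tested complement genes, those of C1 included, 9 were higher in PA and 4 in ATM, with a median difference of 1.66. The terminal component C7 read 10.59, 9.92 and 10.28 in PA and 6.52, 4.54 and 3.93 in ATM (5.27 ± 0.66, adjusted p = 5.21e-06). Vtn, which blocks the terminal complex (5.10 ± 0.46), C2 (3.85 ± 0.35), factor B (Cfb, 2.93 ± 0.29) and C4b (2.18 ± 0.47) were also higher in PA. Properdin (Cfp), which stabilises the alternative pathway enzyme, was higher in ATM, at 8.44, 9.10 and 8.56 against 5.47, 5.09 and 6.73 in PA (-2.94 ± 0.43). The receptors for the pathway's released peptides were macrophage genes: C5ar1 differed by -3.77 ± 0.63 and C3ar1 by -2.96 ± 0.45. Of 12 complement receptors 8 were higher in ATM, and the protective surface regulator Cd55 was the member higher in PA (3.44 ± 0.38).

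Axon guidance ligands, which also steer vessels and migrating cells, were largely stromal, with 17 of 30 higher in PA and 2 in ATM (median 1.19). Slit3 read 9.85, 9.65 and 9.73 in PA and 5.68, 4.91 and 4.92 in ATM (4.57 ± 0.49, adjusted p = 1.13e-06), Slit2 differed by 4.11 ± 0.41, and the netrin Ntn4 was at least 4.04 higher. The members higher in ATM were the class 4 semaphorins Sema4d (-2.62 ± 0.34) and Sema4a (-2.17 ± 0.50).

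Matrix genes gave the highest share of calls of any secreted list. Of 35 collagens and fibrillar matrix genes, 31 were higher in PA and 0 in ATM, with a median difference of 3.91, the exceptions being Fn1, Emilin2, Col8a2 and Col7a1. The fibril collagens Col1a1 (4.00 ± 0.54), Col3a1 (4.44 ± 0.48) and Col5a2 (5.44 ± 0.46) and the basement membrane gene Nid1 (5.19 ± 1.06) were among them. Fibronectin (Fn1) was high in both, at 11.14, 11.11 and 11.32 in PA and 10.39, 9.72 and 10.35 in ATM, and its groups did not overlap although it missed the threshold (1.03 ± 0.42, adjusted p = 0.0816). It was called with array weights (limma adjusted p = 0.0153) and with these arrays fitted alone (0.00959). Of 31 proteoglycans and matricellular proteins 25 were higher in PA, including Thbs2 (5.18 ± 0.64) and periostin (Postn, 4.07 ± 0.48). Serglycin (Srgn, -1.92 ± 0.33), the proteoglycan of secretory granules, and Tgfbi (-1.89 ± 0.33) were the 2 higher in ATM. These matrix genes moved with the fibroblast markers, several of which are list members, and Col3a1 read 6.77, 5.99 and 5.85 in ATM, highest in replicate 1.

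The enzymes that cut matrix were also mostly stromal, with 25 of 38 tested proteases and inhibitors higher in PA (median 2.00). Mmp2, a gelatinase, read 10.83, 10.46 and 10.75 in PA and 6.62, 4.92 and 5.12 in ATM (5.13 ± 0.68, adjusted p = 9.51e-06), and its membrane-bound activator Mmp14 differed by 4.79 ± 0.53. The inhibitor Timp1 (3.94 ± 0.58) and the surface protease Fap (5.20 ± 0.48) were higher in PA as well. Mmp13, a collagenase, was the macrophage gene of the list with the widest gap, at 4.68, 5.32 and 5.05 in ATM and below the median on every PA array (at least 1.98). The other, Mmp9 (-0.92 ± 0.32, adjusted p = 0.038), lost its call whenever any of the 6 arrays was left out (adjusted p 0.0581 to 0.146), so that the count of 2 became 1 in 5 of those fits. The macrophage elastase Mmp12 had no call (8.24, 7.48 and 9.24 in PA, 9.55, 8.83 and 9.69 in ATM, adjusted p = 0.105, and 0.0218 without HFD PA replicate 3).

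Of 21 enzymes of the prostanoid and leukotriene pathways, 3 (14.3%) were higher in PA and 7 (33.3%) in ATM (median -0.21). Over all tested genes these shares were 11.7% and 13.5%. Ptges, which makes prostaglandin E2, read 6.93, 6.87 and 6.40 in PA and 3.20, 2.81 and 2.83 in ATM (3.79 ± 0.46, adjusted p = 3.92e-06). Ptgis, which makes prostacyclin, read 8.31, 8.24 and 8.32 in PA and 5.15, 4.78 and 4.59 in ATM (3.45 ± 0.38, adjusted p = 1.44e-06). The thromboxane synthase Tbxas1 lay on the macrophage side, at 8.81, 8.46 and 8.79 in ATM and 5.35, 4.02 and 6.56 in PA (-3.37 ± 0.51, adjusted p = 3.97e-05). The prostaglandin D2 synthase Hpgds (-3.04 ± 0.58), the leukotriene enzyme Alox5 (-3.22 ± 0.80) and its activating protein Alox5ap (-2.71 ± 0.53) lay there too. Ptgs2, the inducible cyclooxygenase upstream of the prostanoids, was near the array median in both (0.15 ± 0.62, adjusted p = 0.908).

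**Figure D4:**
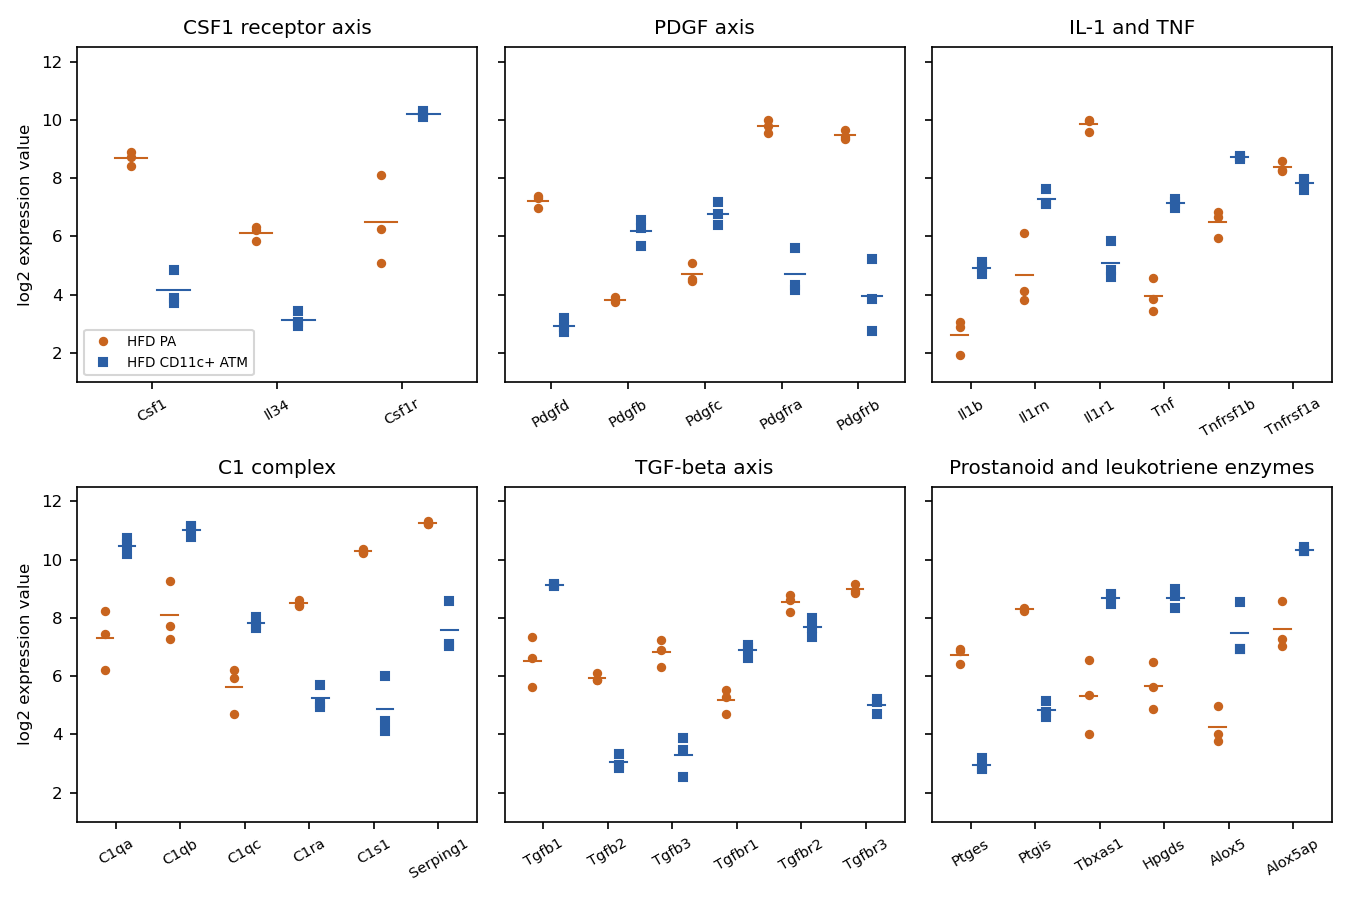
Log2 expression value of named genes on each HFD PA array (orange circles) and each HFD CD11c+ ATM array (blue squares), with a bar at each group mean (n = 3 arrays each), in 6 panels by pathway. Groups of a gene can be compared, but levels of different genes cannot. Csf1 and Il34 lie opposite Csf1r, and the C1q chains opposite C1ra and C1s1. Pdgfd and Pdgfrb, Tnf and Tnfrsf1b, and Tgfb1 and Tgfbr1 each lie on the same side.

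Of 21 tested chemokine receptors, 7 (33.3%) were higher in ATM and 3 (14.3%) in PA, against 13.5% and 11.7% of all tested genes. Ccr2, the receptor that brings monocytes into tissue, read 9.38, 9.93 and 9.20 in ATM and 5.41, 4.83 and 6.79 in PA (-3.83 ± 0.65, adjusted p = 0.000141). Cxcr4 (-3.22 ± 0.50), Ccr1 (-2.62 ± 0.44) and Cx3cr1 (-2.24 ± 0.51) were the other signalling receptors with wide gaps, and Ccr3 was at least 1.15 higher in ATM with replicate 2 below its median (5.34, 2.49 and 4.76). The atypical receptor Ccrl2 (-2.34 ± 0.65) was higher in ATM too, and lost its call without HFD CD11c+ ATM replicate 3 or HFD PA replicate 2 (adjusted p 0.0631 to 0.0932). All 3 higher in PA were atypical receptors, which bind chemokines without the usual signalling: Ackr3 (2.84 ± 0.42), Ackr2 (2.59 ± 0.38) and Ackr4 (at least 0.45).

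Of 40 cytokine receptors, 9 were higher in PA and 13 in ATM (median -0.26). Osmr, the receptor chain for oncostatin M, read 9.14, 9.12 and 8.79 in PA and 4.86, 3.83 and 3.15 in ATM (5.07 ± 0.59, adjusted p = 2.27e-06). Il1r1, the signalling receptor for IL-1, read 9.97, 9.99 and 9.59 in PA and 5.84, 4.60 and 4.86 in ATM (4.75 ± 0.55, adjusted p = 2.38e-06). The growth hormone receptor Ghr (3.08 ± 0.34) and the shared subunit Il6st (1.29 ± 0.16) were higher in PA. Il10ra read 8.34, 8.15 and 8.02 in ATM and 3.83, 3.80 and 5.02 in PA (-3.95 ± 0.37, adjusted p = 3.61e-07), and Il7r (-3.33 ± 0.63), Csf2ra (-2.32 ± 0.29) and Csf2rb (-2.16 ± 0.31) were higher in ATM. Il6ra, the ligand-binding chain for IL-6, was a macrophage gene at -1.62 ± 0.44 (adjusted p = 0.00887), on the other side from its signalling partner Il6st. The interferon gamma receptor Ifngr1 had no call (0.05 ± 0.20, adjusted p = 0.902).

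Receptors for TNF were read next. Tnfrsf1b, the inducible receptor of immune cells, read 8.76, 8.65 and 8.73 in ATM and 6.67, 5.94 and 6.84 in PA (-2.23 ± 0.26, adjusted p = 2.38e-06). Tnfrsf1a, the broadly expressed receptor, read 8.58, 8.25 and 8.28 in PA and 7.95, 7.96 and 7.60 in ATM with no call (0.53 ± 0.23, adjusted p = 0.11). Tnfrsf11a, which encodes RANK, was higher in ATM (-3.34 ± 0.39), and Tnfrsf11b, the secreted decoy for RANK's ligand, was at least 1.46 higher in PA. Of 23 family members, 6 were higher in ATM, Cd40 among them (-2.85 ± 0.41). The 4 higher in PA became 2 without HFD CD11c+ ATM replicate 1 or 2 or HFD PA replicate 1 or 3.

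Receptor tyrosine kinases leaned to the stroma. Of 39 tested, 19 were higher in PA, and Csf1r, Mertk and Flt3 were higher in ATM. Pdgfra read 9.99, 9.55 and 9.79 in PA and 5.60, 4.34 and 4.14 in ATM (5.08 ± 0.73, adjusted p = 2.36e-05), and Pdgfrb read 9.67, 9.40 and 9.35 in PA and 5.21, 3.86 and 2.75 in ATM (5.53 ± 0.67, adjusted p = 3.33e-06). The collagen receptor Ddr2 (4.84 ± 0.48) and Egfr (4.36 ± 0.37) had gaps of the same order. Csf1r read 10.29, 10.21 and 10.10 in ATM and 6.26, 5.07 and 8.12 in PA (-3.72 ± 0.55, adjusted p = 3.13e-05), so that the macrophage arrays lay close together while the PA arrays were spread, with replicate 3 on top. Mertk, a receptor for the uptake of dying cells, differed by -1.75 ± 0.34, while its relative Axl had no call at 9.33, 9.16 and 9.26 in PA and 9.09, 9.18 and 9.18 in ATM (adjusted p = 0.855).

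For the TGF-beta family, the co-receptor Tgfbr3 (3.97 ± 0.40, adjusted p = 5.69e-07) and the BMP receptor Bmpr1a (3.75 ± 0.33, adjusted p = 2.4e-07) were higher in PA. The kinase chain Tgfbr1 was higher in ATM, at 6.97, 6.62 and 7.07 against 5.27, 4.70 and 5.53 in PA (-1.72 ± 0.25). Its partner Tgfbr2 stood at the threshold toward PA (0.86 ± 0.31, adjusted p = 0.0496) and lost its call without HFD CD11c+ ATM replicate 2 or 3 or HFD PA replicate 1 or 3 (adjusted p 0.106 to 0.192). Of 16 Wnt receptors and co-receptors, 7 were higher in PA and 0 in ATM (1 without HFD CD11c+ ATM replicate 2), including Fzd4 (3.44 ± 0.36) and the R-spondin receptor Lgr4 (at least 1.88). The Slit receptor Robo1 (4.13 ± 0.55) was a PA gene, and the semaphorin receptors Plxnc1 (-3.06 ± 0.33) and Nrp2 (-2.09 ± 0.28) were macrophage genes.

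Of 28 Toll-like and other pattern recognition receptors, 20 were higher in ATM and 1 in PA (0 without HFD CD11c+ ATM replicate 3 or HFD PA replicate 1), with a median difference of -2.33. Cd14, the lipopolysaccharide co-receptor, read 9.47, 9.07 and 9.59 in ATM and 6.04, 4.71 and 6.69 in PA (-3.56 ± 0.45, adjusted p = 5.8e-06). The beta-glucan receptor Clec7a (-3.50 ± 0.52) and Tlr2 (-1.47 ± 0.22) were higher in ATM too. Tlr4, which senses lipopolysaccharide with CD14, had no call: it read 7.10, 7.56 and 7.49 in PA and 7.52, 7.91 and 7.65 in ATM (-0.31 ± 0.23, adjusted p = 0.395), and Tlr3 was not called either (0.35 ± 0.29).

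Of 35 Fc, Trem and paired immune receptors, 27 were higher in ATM and 0 in PA, with a median difference of -2.82. The sialic acid receptor Siglec1 (-3.84 ± 0.52), the inhibitory receptor Cd200r1 (-3.75 ± 0.68) and the collagen-binding inhibitory receptor Lair1 (-3.68 ± 0.38) followed the Fc receptors. Trem2, the lipid receptor of lipid-associated macrophages, read 9.93, 9.65 and 9.91 in ATM and 7.20, 6.37 and 8.56 in PA (-2.46 ± 0.67, adjusted p = 0.00944, and 0.0664 without HFD PA replicate 2). Sirpa, which receives the signal that protects cells from being eaten, was higher in ATM (-1.80 ± 0.27), while its ligand Cd47 had no call (-0.25 ± 0.17, adjusted p = 0.331).

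Scavenger receptors differed by member. Of 24 tested, 11 were higher in ATM and 4 in PA. Stab1 (-3.69 ± 0.38), Msr1 (-3.57 ± 0.63) and Mrc1 (-3.34 ± 0.55) were macrophage genes, and the collagen-uptake receptor Mrc2 (4.42 ± 0.44), Vldlr (4.02 ± 0.47) and Colec12 (3.06 ± 0.45) were PA genes. The mannose receptor relatives Mrc1 and Mrc2 therefore lay on opposite sides. Cd36, the fatty acid transporter, was high in both, at 10.83, 10.94 and 11.04 in ATM and 9.90, 10.16 and 10.36 in PA (-0.80 ± 0.20, adjusted p = 0.00432). Lrp1 had no call (0.47 ± 0.41), and neither did the lipid-handling genes Lpl (-0.19 ± 0.26) and Gpnmb (-0.73 ± 0.62), which are often used to mark lipid-laden macrophages. Of the 20 genes on that marker list 11 were higher in ATM and 9 had no call, and the list median was 10.31, 10.27 and 10.48 in ATM and 9.01, 8.63 and 9.54 in PA.

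Receptors for small molecules and peptides completed the picture. Of 14 purinergic receptors, which sense extracellular nucleotides, 7 were higher in ATM and 0 in PA, led by P2ry12 (-3.50 ± 0.65) and P2ry6 (-3.02 ± 0.37). The cysteinyl leukotriene receptor Cysltr1 (-3.45 ± 0.38) and the prostaglandin E2 receptor Ptger4 (-1.12 ± 0.27) were higher in ATM, and Ptger3, another receptor for the same prostaglandin, in PA (1.59 ± 0.32). Of 36 hormone and peptide receptors, 10 were higher in PA, with S1pr3 (4.00 ± 0.53), Avpr1a (3.89 ± 0.48) and the angiotensin receptor Agtr1a (3.71 ± 0.45) in front, and 6 in ATM, led by the endothelin receptor Ednrb (-2.54 ± 0.62). Among integrins, the collagen receptor subunit Itga11 was a PA gene (4.27 ± 0.59), and the leukocyte subunits Itgam (-3.55 ± 0.52) and Itga4 (-3.08 ± 0.26) were macrophage genes. Itgax, the gene of the sort marker, read 8.89, 7.70 and 9.0 in ATM and 5.70, 4.71 and 7.26 in PA (-2.64 ± 0.60, adjusted p = 0.00205). The groups did not overlap, although PA replicate 3 came close to the lowest macrophage array.

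Ligands were then read against their own receptors. Of 125 listed ligand and receptor pairs, 108 had both ends in the table, 100 had both tested and 40 had both called. Calls at the 2 ends fell on opposite sides in 20 pairs, 12 with the ligand in PA and the receptor in ATM and 8 with the ligand in ATM and the receptor in PA. In the other 20 both ends lay in the same population, 12 in PA and 8 in ATM. Several pairs share a receptor or a ligand, so they are not independent, and the lists were chosen with earlier results of these data known.

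From preadipocyte to macrophage, 8 of the 12 pairs kept both calls when any of the 6 arrays was left out. These were Csf1 and Il34 with Csf1r, Cxcl12 with Cxcr4, Ccl11 with Ccr3, Vcam1 with Itga4, Col1a1 with Lair1, Sema3c with Nrp2 and Thbs1 with Cd36. The difference of Cd36, which was high in both populations, was under 1 unit (-0.80 ± 0.20). Ccr3 lay below the array median on HFD CD11c+ ATM replicate 2. Vcam1, an adhesion molecule, read 9.29, 9.26 and 9.20 in PA and 7.29, 7.50 and 6.51 in ATM (2.15 ± 0.40, adjusted p = 0.000376), and its leukocyte receptor subunit Itga4 read 7.59, 7.63 and 7.73 in ATM and 4.29, 4.82 and 4.60 in PA (adjusted p = 1.97e-07). Neither end overlapped between the groups. The other 4 lost a call in some fit: Icam1 with Itgam or Itgal (without HFD CD11c+ ATM replicate 3 or HFD PA replicate 1 or 3, and for Itgal also without HFD CD11c+ ATM replicate 1), and Pros1 with Mertk and Plau with Plaur (without HFD CD11c+ ATM replicate 2 or 3 or HFD PA replicate 2). The differences of Pros1 (0.74 ± 0.22), Plau (1.00 ± 0.30) and Icam1 (0.80 ± 0.25) were at most 1 unit, and their adjusted p without those arrays was 0.052 to 0.0837, 0.0512 to 0.0806 and 0.0603 to 0.0986, with Itgal at 0.063.

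From macrophage to preadipocyte, 5 of the 8 pairs kept both calls in all 6 fits: Pdgfb with Pdgfrb, Pdgfc with Pdgfra, Il1b and Il1rn with Il1r1, and Il15 with Il15ra. For IL-1 both the agonist and the antagonist transcript thus lay in ATM and the signalling receptor in PA. Pdgfa with Pdgfra and Tgfb1 with Tgfbr2 rested on the ends described above, and Bmp2 with Bmpr1a on a Bmp2 call (-1.50 ± 0.51, adjusted p = 0.0351) that was lost without HFD CD11c+ ATM replicate 1 or 2 or HFD PA replicate 1 or 3 (adjusted p 0.0896 to 0.162).

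Pairs within a population included Agt with Agtr1a, Slit2 with Robo1, Pdgfd with Pdgfrb, Bmp4 with Bmpr1a, Rspo3 with Lgr4, Cxcl12 with the atypical receptor Ackr3, Angpt1 with Tek and Col1a1 with Ddr2 in PA, all kept in the 6 fits. In ATM they were Tnf with Tnfrsf1b, Il10 with Il10ra, Tgfb1 with Tgfbr1, and Ccl3 and Ccl6 with Ccr1, also kept. Of the other pairs in PA, Fgf2 with Fgfr1 lost a call in each of the 6 fits (adjusted p 0.0571 to 0.138 and 0.0679 to 0.151), Tgfb2 and Tgfb3 rested on Tgfbr2, and Col1a1 with Itga1 lost a call without HFD PA replicate 2 (0.0699 for Itga1). In ATM, Ccl9 with Ccr1 lost a call without HFD PA replicate 2 (0.085 for Ccl9), and Sema4a with Plxnd1 and Sema4d with Plxnb2 without any array but HFD PA replicate 3 (0.0568 to 0.0932 for Plxnd1 and 0.0604 to 0.125 for Plxnb2). Cxcl12 and Pdgfrb thus each stood in pairs of different direction, since Cxcr4 was a macrophage gene and Ackr3 a PA gene, and Pdgfb a macrophage gene and Pdgfd a PA gene. Tek, paired with Angpt1, is also on the endothelial marker list, and which cells of the PA sort carried it was not tested.

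**Figure D5:**
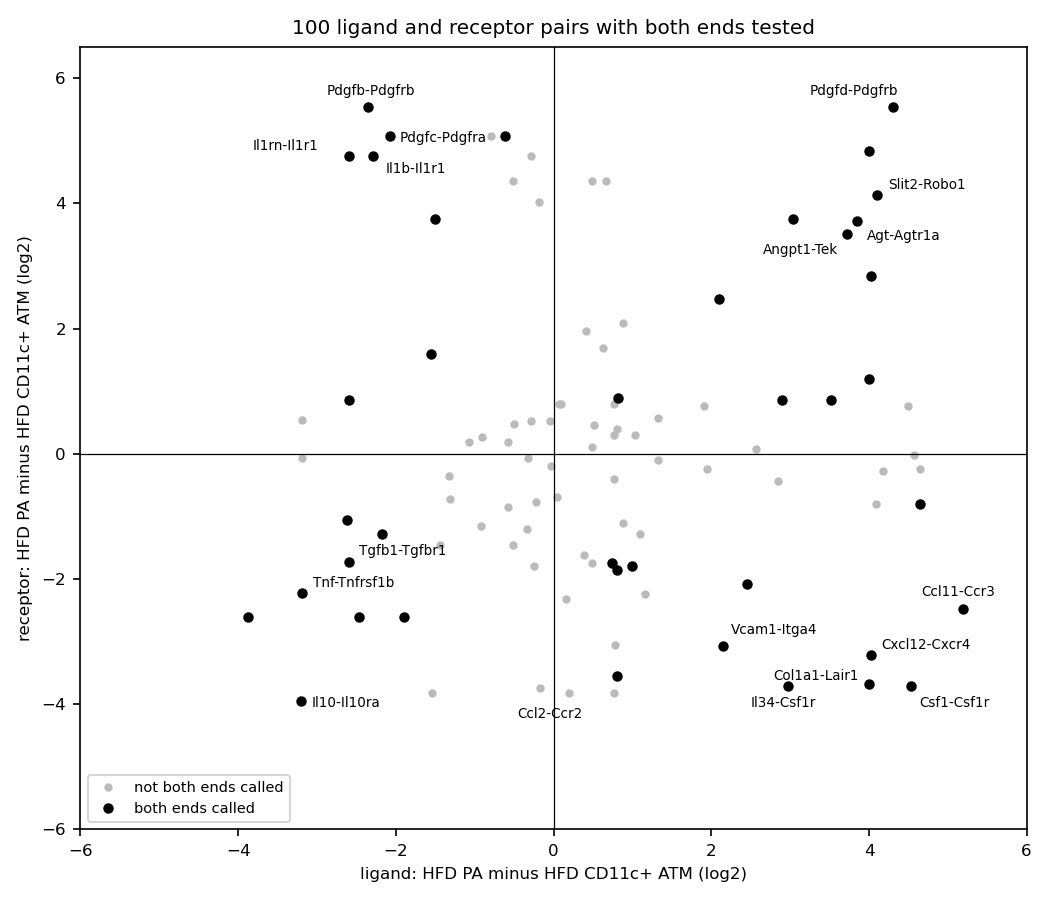
Difference of the ligand (horizontal axis, log2) against the difference of its receptor (vertical axis, log2), each HFD PA minus HFD CD11c+ ATM, for the 100 pairs with both ends tested. Black points are the 40 pairs with both ends called, and the lower right holds the 12 with ligand in PA and receptor in ATM, the upper left the 8 with ligand in ATM and receptor in PA.

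Cell cycle transcripts separated the populations in a nearly uniform direction. Of 28 cell cycle genes, 27 were higher in HFD CD11c+ ATM and 0 in HFD PA, with a median difference of -2.0. The count of 27 became 24 to 26 with an array of the 2 groups left out, and 9 when the difference had to exceed 1. Top2a read 7.60, 7.89 and 7.91 in ATM and 4.26, 4.78 and 6.00 in PA (-2.79 ± 0.46, adjusted p = 0.000106), and Mki67 read 7.71, 8.34 and 8.11 in ATM and 4.47, 5.67 and 6.21 in PA (-2.60 ± 0.41, adjusted p = 5.9e-05). On both genes HFD PA replicate 3 was the highest PA array. The list median was 6.58, 6.82 and 6.93 in HFD CD11c+ ATM, 4.30, 4.80 and 5.18 in HFD PA, 5.52 to 6.27 in HFD CD11c- ATM and 3.53 to 3.90 in ND PA. Genes that respond to cell isolation were less uniform, with 9 of 28 higher in ATM and 3 in PA. Atf3 differed by -3.30 ± 0.65 and the heat shock gene Hspa1b by 2.40 ± 0.45, and the count of 9 became 4 without HFD CD11c+ ATM replicate 2, 5 without HFD CD11c+ ATM replicate 3 and 4 without HFD PA replicate 2.

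Few genes separated the CD11c+ macrophages from the other macrophage gate of the same diet. Between HFD CD11c+ ATM and HFD CD11c- ATM, 1 of 15496 genes (0.00645%) was called by limma, and 997 had an unadjusted p under 0.05. That gene was Klrb1b, an NK cell receptor family member, with a mean of 4.93 ± 0.53 (SD, n = 3) in CD11c+ ATM and 2.45 ± 0.52 (SD, n = 3) in CD11c- ATM (2.49 ± 0.37, limma adjusted p = 0.032). Its call was lost without HFD CD11c+ ATM replicate 1 or 2 or HFD CD11c- ATM replicate 1 or 3 (limma adjusted p 0.0641 to 0.129), and near-identical family members can share signal. Of the 728 tested genes on the secreted and receptor lists, 0 were called and 139 had an unadjusted p under 0.05, so a lack of calls does not show equal levels. Itgax itself averaged 8.53 ± 0.72 (SD, n = 3) in CD11c+ and 6.13 ± 1.09 (SD, n = 3) in CD11c- ATM and did not pass (2.40 ± 0.60, limma adjusted p = 0.337). Pdgfb averaged 6.18 ± 0.46 against 5.03 ± 0.21, Tnf 7.14 ± 0.16 against 6.88 ± 0.39, Il1b 4.92 ± 0.22 against 4.83 ± 0.26 and Csf1r 10.20 ± 0.10 against 10.27 ± 0.16, each CD11c+ before CD11c- (SD, n = 3). The fibroblast marker list read 6.83, 6.92 and 8.54 on the CD11c- ATM arrays, each above every CD11c+ ATM array.

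The gap between preadipocytes and macrophages was then compared with its lean counterpart, ND PA minus ND CD11c- ATM. The signed gap (PA minus ATM) differed for 128 genes (0.826%), 75 with a higher value in obese fat and 53 with a lower one, and 1889 had an unadjusted p under 0.05. Of the 728 ligand and receptor genes, 35 were called, 27 higher and 8 lower. A higher signed value can be a wider gap toward PA or a narrower gap toward the macrophages. Diet and macrophage gate change together in this comparison, and the HFD CD11c- ATM arrays, which share the gate of the lean macrophages, are therefore given beside it. The count rests on single arrays: it was 48 or 42 without ND CD11c- ATM replicate 1 or 2, 218, 66 or 68 without ND PA replicate 1, 2 or 3, 50 or 48 without HFD CD11c+ ATM replicate 1 or 3, and 83 or 74 without HFD PA replicate 1 or 3. The genes described here kept their calls in each of the 11 fits that leave out an array.

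Cxcl12 was such a gene. It averaged 9.28 ± 0.13 in HFD PA, 9.02 ± 0.20 in ND PA, 5.26 ± 0.41 in HFD CD11c+ ATM and 8.49 ± 0.14 in ND CD11c- ATM (SD, n = 3 each and 2 for ND CD11c- ATM), and the gap was wider in obese fat by 3.49 ± 0.56 (adjusted p = 0.00363). HFD CD11c- ATM stood between the macrophage groups at 7.07 ± 0.47 (SD, n = 3). Mmp9, a gelatinase, averaged 3.51 ± 0.13 in HFD PA, 3.67 ± 0.21 in ND PA, 4.42 ± 0.25 in HFD CD11c+ ATM and 9.42 ± 0.12 in ND CD11c- ATM (SD, same n), a change of the signed gap by 4.84 ± 0.47 (adjusted p = 1.74e-05). At 4.62 ± 0.58 (SD, n = 3), HFD CD11c- ATM lay near the other obese macrophages and below the lean ones of the same gate. The lectin Cd209b averaged 3.86 ± 0.39 in HFD PA, 2.95 ± 0.72 in ND PA, 5.0 ± 1.12 in HFD CD11c+ ATM and 8.87 ± 0.02 in ND CD11c- ATM (SD, same n), a change by 4.78 ± 0.67 (adjusted p = 0.0013), and HFD CD11c- ATM stood between the macrophage groups at 7.26 ± 0.48 (SD, n = 3). For Mmp9 and Cd209b the macrophages had the higher mean in both diets, by less in obese fat. For Cxcl12, Mmp9 and Cd209b the macrophage means of the lean and obese groups lay farther apart than the PA means.

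For the other 3 the PA means lay farther apart than the macrophage means. C4b, a complement component, averaged 9.89 ± 0.47 in HFD PA, 6.83 ± 0.87 in ND PA, 7.71 ± 0.82 in HFD CD11c+ ATM and 9.34 ± 0.07 in ND CD11c- ATM (SD, same n), a change of the signed gap by 4.69 ± 0.70 (adjusted p = 0.00234). HFD CD11c- ATM averaged 9.27 ± 0.45 (SD, n = 3), close to the lean macrophages of the same gate. Its gap had opposite signs: the macrophages had the higher mean in lean fat and PA in obese fat. The nucleotide receptor P2ry1 averaged 5.20 ± 0.38 in HFD PA, 8.28 ± 0.37 in ND PA, 5.43 ± 0.75 in HFD CD11c+ ATM and 3.71 ± 0.77 in ND CD11c- ATM (SD, same n), a change by -4.80 ± 0.68 (adjusted p = 0.00131), with HFD CD11c- ATM at 4.99 ± 0.37 (SD, n = 3). The serine synthesis enzyme Psat1 averaged 5.49 ± 0.30 in HFD PA, 7.55 ± 0.36 in ND PA, 5.92 ± 0.33 in HFD CD11c+ ATM and 4.12 ± 0.46 in ND CD11c- ATM (SD, same n), a change by -3.86 ± 0.50 (adjusted p = 0.000556), with HFD CD11c- ATM at 5.08 ± 0.25 (SD, n = 3).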

How the data were processed

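RNA of sorted cells was measured on 24 single-colour arrays. The deposited values are log2 expression values that the authors made by RMA (background correction, quantile normalization and summary per probe set), with oligo and limma named, without versions, per the submitters' processing notes. Of 41345 rows, 23521 carry 1 gene symbol, 1814 several and 16010 none. Each of 22180 genes was read from 1 row, its brightest on average, a choice that concerns 1082 genes with more than 1 row. Genes above the array's own median on at least 2 arrays were tested (15496). Group means of 9 groups were fitted with lmFit and eBayes of limma 3.58.1 in R 4.3.3 (15 residual degrees of freedom), with Benjamini-Hochberg adjustment over all tested genes and a threshold of 0.05. On data simulated for the main comparison over 15496 genes, 32% of the genes planted at a log2 difference of 1 were called, 94% at 2, 98% at 3 and 98% at 4, with 1 false call. Only 50 genes were planted at each size, with independent normal noise and every other gene equal between groups. The data gave 3902 calls, so these rates need not hold there.

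Correlations between arrays over tested genes were 0.952 to 0.982 within the 2 groups and 0.794 to 0.868 between them. The small number of arrays limits the precision, and p-values measure the spread between pooled samples. No scan dates or batches are given in the sources used here. The gene lists, the ligand and receptor pairs and the comparison itself were chosen with earlier results of these data known. The text names the 15 largest non-overlapping differences each way (unnamed gene models passed over), up to 4 called members of each list each way, pair members, marker genes, and the 5 largest differences each way in the other comparisons where they held without any array. Further list members were named for their known role after their values were seen. Alternatives changed the filter, the choice of row, the scaling, the weights, the variance trend, the replicate block, the test against a difference over 1, the arrays fitted and the arrays left out.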

Additional observations from a re-analysis of the deposited data

Results flagged for a closer look

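Among the named genes, 26 differed in the gap between preadipocytes and macrophages from obese to lean fat by the interaction term of limma (adjusted p under 0.05), given as the obese gap minus the lean gap in log2 units with its SE. The signed gap (PA minus ATM) had a higher value in obese fat for Mmp9 (4.84 ± 0.47), Cd209b (4.78 ± 0.67), C4b (4.69 ± 0.70) and Cxcl12 (3.49 ± 0.56), and a lower one for P2ry1 (-4.80 ± 0.68) and Psat1 (-3.86 ± 0.50), and these kept their calls whichever array was left out. A higher value was also called for Ltc4s (4.75 ± 0.96), Tnfrsf26 (4.72 ± 1.03), Ccl8 (4.62 ± 1.04), Ccl24 (3.85 ± 0.83), Cd163 (3.48 ± 0.77), Sema4a (3.27 ± 0.74), Ccr1 (2.91 ± 0.67), C1qb (2.54 ± 0.59), P2rx7 (2.18 ± 0.39), Gas6 (2.17 ± 0.47), Tgfbi (2.11 ± 0.49), Il16 (2.07 ± 0.45), Cfb (1.97 ± 0.44) and Cd36 (1.26 ± 0.30), and a lower one for Pcdh7 (-5.22 ± 1.06), Ctsk (-4.39 ± 0.77), Lrrtm3 (-3.92 ± 0.82), Rspo3 (-3.75 ± 0.71), Vegfa (-2.27 ± 0.52) and Pappa (-1.86 ± 0.38), each of which lost its call when some array was left out. Ctsk, a collagen-cutting cathepsin, averaged 10.03 in HFD PA, 8.99 in ND PA, 8.71 in HFD CD11c+ ATM, 7.82 in HFD CD11c- ATM and 3.28 in ND CD11c- ATM. Pcdh7, a protocadherin, averaged 7.40 in HFD PA, 7.0 in ND PA, 7.59 in HFD CD11c+ ATM, 5.71 in HFD CD11c- ATM and 1.97 in ND CD11c- ATM. Ltc4s, the leukotriene C4 synthase, averaged 4.53 in HFD PA, 3.20 in ND PA, 6.04 in HFD CD11c+ ATM, 8.21 in HFD CD11c- ATM and 9.47 in ND CD11c- ATM. The obese macrophages of this comparison are CD11c+ and the lean ones CD11c-, and the HFD CD11c- ATM values are given to set lean and obese macrophages of the same gate side by side.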

How the results depend on the processing

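In the main comparison the count of 3902 called genes became 6014 with array weights and 1320 when the difference had to exceed 1, and it ranged from 3172 to 3477 when an array of the 2 groups was left out, with 80.1% to 85.9% of the calls kept. Every other planned setting gave 3743 to 4846. The share of calls higher in HFD PA was 46.4%, and 44.2% with arrays centred on their medians, which moved the median of all genes to -0.11. Between the macrophage gates the count of 1 became 26 with array weights and 0 after another quantile normalization, with a difference over 1 or with these arrays fitted alone, and ranged from 0 to 3 with an array left out. For the gap, 128 became 862 with array weights, 13 with a difference over 1, 362 with these arrays fitted alone, 39 without HFD PA replicate 3 and HFD CD11c+ ATM replicate 1, and 42 to 218 with an array left out. The cause was not tested. Of 252 named genes followed through these settings, 216 were called in the main comparison. Of these, 53 lost the call when the difference had to exceed 1 and 19 when some array was left out, and no call reversed. Of the 36 without a call, 10 changed sign in some setting. With the replicate number as a block, 4024, 1 and 89 genes were called in the 3 comparisons. The deviations of arrays of the same number correlated at 0.115, 0.108 and 0.0654, and those of arrays of different numbers at -0.0963 to 0.0172. These low values do not settle whether a number marks shared mice, which the labels do not state. Signal near the array median limits low genes, for which lower bounds are given.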
